A study of Rattus norvegicus with 12 samples.

Results

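The genes described here are 10 members of the interleukin 1 family, its receptors and its antagonists, measured in rat kidneys with renal fibrosis. They comprise the ligands Il1a, Il1b and Il33, the receptors and receptor subunits Il1r1, Il1rap, Il1rl1 and Il18r1, the decoy receptor Il1r2, and the antagonists Il1rn and Il18bp. They were found by gene symbol, and each had 1 entry among the 22132 entries of the control and adenine table and 1 among the 32623 entries of the sham and UUO table. Il1rn had been picked because its FPKM rose more in the adenine samples than in the UUO samples, so its values are given as a description with no test. FPKM counts the sequenced fragments of a gene relative to its transcript length and to the mapped fragments of the sample.

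All 12 rats were male, wild-type Sprague-Dawley (SD) rats, bought at 8 weeks of age and acclimatized for 7 days, and kidney tissue of 3 rats per group was sequenced. The adenine group had received 220 mg/kg of adenine per day into the stomach for 3 weeks, and the control group daily saline. The UUO group had had the left ureter tied off (unilateral ureteral obstruction) and the sham group surgery without ligation, and both were sampled 2 weeks later. The sources used here do not state which kidney was taken. The adenine model acts on both kidneys through a chemical, whereas UUO is a mechanical block of 1 kidney, and neither carries a transgene. The question addressed was how far the family's genes changed in each model and whether the change differed between the models.

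Interleukin 1 alpha and beta, encoded by Il1a and Il1b, bind the receptor encoded by Il1r1, which then recruits the accessory protein encoded by Il1rap and signals through MyD88 to NF-kB. The product of Il1rn occupies the same receptor without signalling, and the decoy receptor encoded by Il1r2 binds the ligand without passing on a signal. IL-33 acts through the receptor ST2, encoded by Il1rl1, and IL-18 through its receptor chain encoded by Il18r1, while the protein encoded by Il18bp binds IL-18 and blocks it.

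Il1b and Il1rn are shown by the 250 bases before their transcription start, because the agonist and the antagonist of 1 receptor changed by different amounts in the models. The promoters are from RefSeq (build GRCr8), Il1b at chr3:137036582-137036831 on the minus strand and Il1rn at chr3:27520072-27520321 on the plus strand, each written 5′ to 3′ along the gene. The Il1rn start used lies 10486 bases inside the annotated gene boundary, so it is 1 of possibly several starts. Capitals mark matches on either strand to a C/EBP motif (TTNNGNAA) or a TATA box (TATAAA).
Il1b: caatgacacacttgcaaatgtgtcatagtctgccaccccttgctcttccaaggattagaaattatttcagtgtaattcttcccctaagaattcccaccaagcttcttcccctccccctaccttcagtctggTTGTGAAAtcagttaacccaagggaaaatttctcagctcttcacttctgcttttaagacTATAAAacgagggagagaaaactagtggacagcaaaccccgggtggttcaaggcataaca
Il1rn: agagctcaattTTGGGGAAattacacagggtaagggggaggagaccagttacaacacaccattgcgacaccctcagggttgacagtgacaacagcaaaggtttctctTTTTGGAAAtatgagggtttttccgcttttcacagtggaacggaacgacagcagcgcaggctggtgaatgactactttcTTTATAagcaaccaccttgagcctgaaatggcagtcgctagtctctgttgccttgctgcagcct

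Both windows held a C/EBP and a TATA box match. In Il1b the C/EBP match began 119 bases and the TATA box 60 bases before the start. In Il1rn a C/EBP match began 239 bases before the start, a pair of overlapping C/EBP matches lay within the capitals from 143 to 135 bases before it, and the TATA box match was on the opposite strand, 64 to 59 bases before it. Among 33469 rat promoter windows of the same length, 37.2% held a C/EBP match and 12.9% a TATA box match, so neither is rare. The motifs of PU.1 (GAGGAAGT, in 2.04% of promoters) and AP-1 (TGANTCA, 6.34%) had no match in either window. The same holds for NF-kB (GGGA and CC with any 4 bases between them, 16.4%) and for the interferon response element (GAAA, any 2 bases and GAAA, 3.41%).

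The samples read as kidney. FPKM of 6 proximal tubule genes summed to between 1428 and 2107 in control and sham rats, and to between 147 and 494 in adenine and UUO rats. At adjusted p under 0.05 (limma), Lrp2, Slc34a1, Slc22a6 and Aqp1 were lower in both models, as were 19.9% (adenine) and 14.4% (UUO) of all tested genes. Cubn and Slc5a2 passed in neither, and mean Slc5a2 FPKM was 5.48 in control and 17.5 in adenine rats, with overlap. Control rat 2 stood apart on 4 podocyte genes, whose FPKM summed to 31.2, against 143 and 199 in the other control rats, and on the distal tubule genes Slc12a3 (12.9, against 197 and 164) and Calb1 (27.5, against 407 and 190). It also had the lowest Il1b and Il1r1 of the control rats. Adenine rat 2 stood apart in the other direction, with the highest podocyte sum of the adenine rats (60.3). Its Slc12a3 was 88.9, against 11.5 and 14.8 in the other adenine rats, and its Calb1 140.1, against 9.49 and 10.4. Adenine rat 2 also had the lowest Il1rn and Il18bp and the highest Il1b, Il1r1, Il1r2, Il18r1 and Il33 of the adenine rats. FPKM over all entries summed to between 564972 and 582725 in control, 468389 and 487770 in adenine, 619663 and 630242 in sham, and 528810 and 539009 in UUO rats. A shift of all genes went with this, since over all tested genes the log2 fold change had a median of 0.30 between adenine and control and of 0.62 between UUO and sham. Scaling the samples by the median of their gene-wise ratios brought these medians to 0.014 and 0.030. The number of reads behind an FPKM is unknown. Some zeros may be failed estimates, since Map3k7, a kinase gene used by every cell, was listed at the table's lowest value of 0.0001 in sham rats 2 and 3 and UUO rat 2.

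Il1rn was the family gene with the largest change in the adenine model. In control rats 1 to 3 its FPKM was 1.01, 0.831 and 0.706, and in adenine rats 1 to 3 it was 467, 233 and 373. The means were 0.847 ± 0.150 and 358 ± 118 (SD, n = 3 each), a ratio of 422, and the log2 fold change was 8.51 ± 0.27 (SE). Of 15029 tested genes, 6 rose by as much, Il1rn included (0.0399%), which is a description, as Il1rn was picked for its rise with adenine. Its level took place 5 among the 10 members in control rats and place 1 in adenine rats, above Il33, which led in the other groups.

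In the UUO model Il1rn also lay far above its sham level. FPKM was 1.10, 0.970 and 0.835 in sham rats 1 to 3 and 12.3, 17.1 and 8.50 in UUO rats 1 to 3. Means were 0.967 ± 0.130 and 12.6 ± 4.31 (SD, n = 3 each), a ratio of 13.1 and a log2 fold change of 3.53 ± 0.27 (SE). All UUO values were above all sham values, and all adenine values above all control values. A rise this large was shared by 419 of 15043 tested genes (2.79%). The log2 fold changes in the models differed by 4.99 ± 0.38 (SE), and a difference at least as large towards adenine was found for 10 of 13486 genes tested in both (0.0742%). As Il1rn was picked for this difference, its high rank follows from the choice and is no test.

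**Figure D1:**
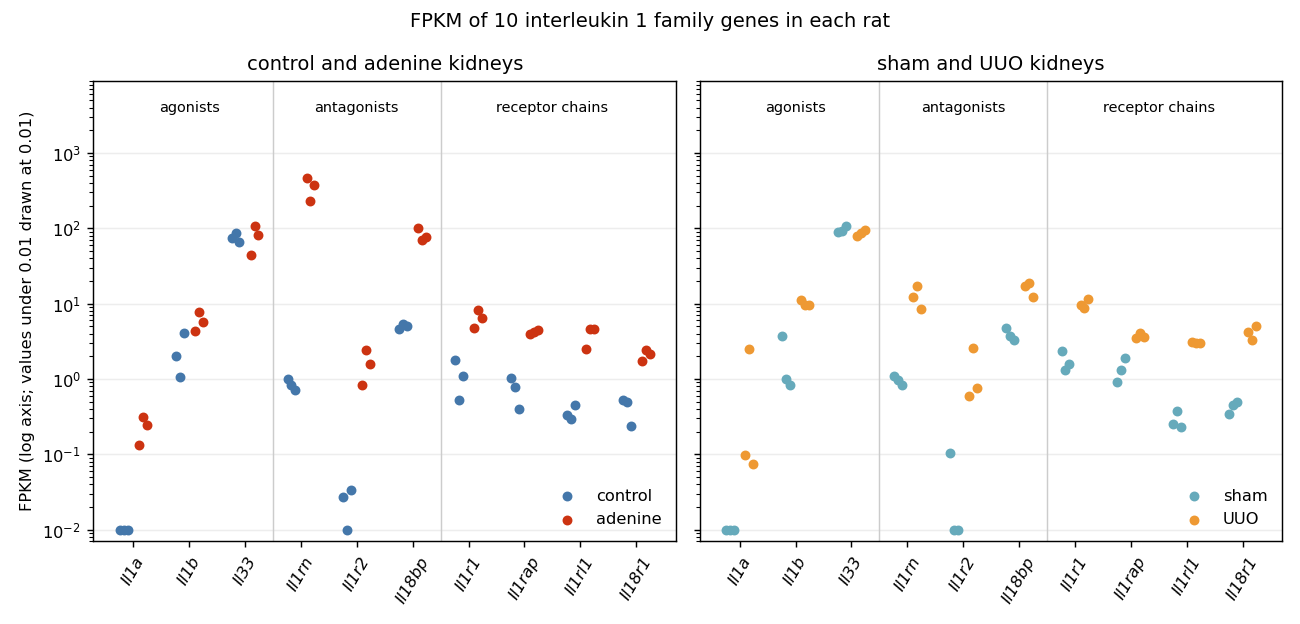
FPKM (log axis) of the 10 genes in each rat of the 4 groups, with 1 point per rat, 3 rats per group, and values under 0.01 drawn at 0.01. Il1rn lies near 1 in control and sham rats, between 8.50 and 17.1 in UUO rats and between 233 and 467 in adenine rats, while Il33 overlaps between groups.

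The agonist Il1b, the inflammatory cytokine of the pair, rose in both models. Its FPKM was 1.99, 1.07 and 4.14 in control rats and 4.35, 7.74 and 5.73 in adenine rats, so the groups came close without overlapping. The log2 fold change was 1.43 ± 0.47 (SE, limma, Benjamini-Hochberg adjusted p = 0.0360). This call was lost without a filter on low values (1.43, limma, adjusted p = 0.0551) and after median-of-ratios scaling (1.15, 0.0737). It was also lost without control rat 1 (1.40, limma, adjusted p = 0.0856), control rat 2 (0.98, 0.0740), adenine rat 2 (1.22, 0.105) or adenine rat 3 (1.44, 0.0892). Without control rat 2, 6 members were called higher in all, and Il1r1 kept its call (2.09, limma, adjusted p = 0.00329).

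In the UUO model Il1b FPKM was 3.69, 0.993 and 0.830 in sham rats and 11.3, 9.47 and 9.53 in UUO rats, a 5.50-fold rise of the mean. The log2 fold change was 2.70 ± 0.51 (SE, limma, adjusted p = 0.00302). Control rat 3 and sham rat 1 were high among the undiseased rats. The difference between the models, -1.27 ± 0.70 (SE), did not pass the test (adjusted p = 0.191, from the limma fits), and passed it without sham rat 1 (-1.90, adjusted p = 0.0173, limma).

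Set against its agonist, the antagonist moved from below it to far above it in adenine rats. FPKM of Il1rn per FPKM of Il1b was 0.504, 0.776 and 0.170 in control rats and 107.5, 30.0 and 65.1 in adenine rats. In sham rats the ratio was 0.297, 0.977 and 1.01 and in UUO rats 1.09, 1.81 and 0.891, so these groups overlapped. As Il1rn was chosen on these contrasts, no test of this ratio is given.

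Il1a, the other agonist, was low throughout. It was listed at 0 in all control rats and at 0.134, 0.309 and 0.248 FPKM in adenine rats. It was listed at 0.0001 in all sham rats and at 0.0993, 2.47 and 0.0755 in UUO rats, where rat 2 stood far above the others. It missed the minimum for testing (0.5 FPKM or more in 3 or more of the 6 samples) in both tables.

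Il33, an alarmin kept in cell nuclei, was the most abundant family gene in the undiseased kidneys and did not pass the test in either model. Its FPKM was 74.6, 85.7 and 65.7 in control rats and 44.2, 107.7 and 82.1 in adenine rats, and the adenine rats lay both below and above all controls. The log2 fold change was -0.035 ± 0.32 (SE, limma, adjusted p = 0.933), and it was 0.33 without adenine rat 1. FPKM was 89.6, 90.9 and 108.1 in sham rats and 79.1, 88.0 and 96.2 in UUO rats, and the log2 fold change, -0.13 ± 0.11, was not called (SE, limma, adjusted p = 0.329). Here the scaling decides the call: after median-of-ratios scaling Il33 was lower in UUO rats by a log2 fold change of -0.73 (limma, adjusted p = 0.000952).

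The receptors rose in both models. Il1r1, the signalling receptor of both agonists, was at 1.77, 0.525 and 1.10 FPKM in control rats and at 4.68, 8.22 and 6.38 in adenine rats. In sham rats it was at 2.32, 1.33 and 1.58 and in UUO rats at 9.62, 8.87 and 11.6. Neither pair of groups overlapped, and the log2 fold changes of 2.51 ± 0.42 and 2.48 ± 0.23 (SE, limma, adjusted p = 0.00247 and 0.000125) both passed the test. Their difference was 0.022 ± 0.48 (SE), with adjusted p = 0.978 from the limma fits.

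Il1rap, the accessory chain shared by the receptors of interleukin 1 and IL-33, rose from 1.03, 0.781 and 0.403 FPKM in control rats to 4.02, 4.16 and 4.42 in adenine rats. It rose from 0.916, 1.3 and 1.93 in sham rats to 3.45, 4.12 and 3.59 in UUO rats. The diseased rats were tightly grouped and above all undiseased rats in both. Log2 fold changes were 2.44 ± 0.32 and 1.42 ± 0.28 (SE, limma, adjusted p = 0.000791 and 0.00331), and their difference of 1.02 ± 0.42 (SE) missed the threshold (adjusted p = 0.0856, limma fits). It passed after median-of-ratios scaling (1.32, adjusted p = 0.0410, limma fits), without control rat 1 (1.27, 0.0344) and without sham rat 1 (1.26, 0.0345).

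Il1rl1, which encodes the IL-33 receptor ST2, rose in both models. Its FPKM was 0.336, 0.292 and 0.450 in control rats and 2.54, 4.62 and 4.63 in adenine rats, a 10.9-fold rise of the mean. In sham rats it was 0.256, 0.373 and 0.234 and in UUO rats 3.12, 2.98 and 2.98, a 10.5-fold rise. The log2 fold changes were 3.10 ± 0.31 and 3.03 ± 0.24 (SE, limma, adjusted p = 0.000266 and 6.81e-05), and their difference of 0.071 ± 0.39 (SE) was not called (adjusted p = 0.910, limma fits). No undiseased rat reached the minimum of 0.5 FPKM, so the gene entered both tests through the diseased rats and could only come out higher. Per FPKM of Il1rl1, the FPKM of its ligand gene Il33 was lower in every diseased than in every undiseased rat, with 222, 294 and 146 in control and 17.4, 23.3 and 17.7 in adenine rats. It was 350, 244 and 462 in sham and 25.3, 29.6 and 32.3 in UUO rats. Each exact permutation p was 0.1, the smallest that 3 against 3 rats allow, so no ratio could reach 0.05.

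Il18r1, a chain of the IL-18 receptor, was at 0.535, 0.493 and 0.239 FPKM in control rats and 1.74, 2.46 and 2.15 in adenine rats, a 5.02-fold rise of the mean. In sham rats it was at 0.347, 0.447 and 0.495 and in UUO rats at 4.18, 3.33 and 5.04, a 9.74-fold rise. Log2 fold changes were 2.13 ± 0.32 and 3.01 ± 0.24 (SE, limma, adjusted p = 0.00144 and 7.55e-05), and the gene entered the UUO test through the UUO rats alone. The difference of -0.88 ± 0.40 (SE) had adjusted p = 0.115 from the limma fits. It passed with a pseudocount of 1 (-0.71, adjusted p = 0.0236, limma fits) and without control rat 3 (-1.17, adjusted p = 0.0340).

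Il1r2, the decoy receptor, was listed near or at the lowest value in undiseased rats and rose in both models. FPKM was 0.0271, 0 and 0.0342 in control rats and 0.825, 2.43 and 1.57 in adenine rats. It was 0.105 in sham rat 1, 0.0001 in the other sham rats, and 0.597, 2.60 and 0.770 in UUO rats. Log2 fold changes on the log2(FPKM + 0.1) scale were 3.72 ± 0.43 and 3.21 ± 0.61 (SE, limma, adjusted p = 0.000516 and 0.00309), and over the alternatives these sizes ran from 1.31 to 5.86 and from 1.07 to 5.56. Here too no undiseased rat reached the minimum, so both tests could only come out upwards. The change in UUO was 2.61 without UUO rat 2. The models differed by 0.51 ± 0.75 (SE), which was not called (adjusted p = 0.646, limma fits). UUO rat 2, the rat with most Il1a and Il1r2, also had the highest summed FPKM of 6 neutrophil markers (38.0, against 16.4 and 6.91 in the other UUO rats). Of these markers, Elane was at the lowest value in every sham and UUO rat. S100a8, S100a9, Csf3r and Cxcr2 were called higher with UUO (log2 fold changes 3.53, 4.29, 2.87 and 3.22, limma), as were 56.1% of all tested genes. Each of them was highest in UUO rat 2, and Mpo, which was not tested, in UUO rat 1. Csf3r and Cxcr2 passed the minimum through the UUO rats alone. With adenine, S100a8, S100a9 and Csf3r were called higher (log2 fold changes 4.76, 3.51 and 2.94, limma), as were 39.6% of all tested genes. There S100a8 and Csf3r passed the minimum through the adenine rats alone. The sum of the 6 markers was 1.14 to 2.49 in control rats and 14.1, 26.5 and 25.4 in adenine rats 1 to 3. Whether neutrophils had a part in the level of Il1r2 was not tested.

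Il18bp, the antagonist of IL-18, was the only tested member whose change differed between the models. Its FPKM was 4.58, 5.39 and 5.04 in control rats and 102, 69.4 and 77.6 in adenine rats, a 16.6-fold rise of the mean. In sham rats it was 4.75, 3.67 and 3.27 and in UUO rats 17.4, 18.8 and 12.4, a 4.15-fold rise. Log2 fold changes were 4.01 ± 0.16 and 2.02 ± 0.21 (SE, limma, adjusted p = 2.48e-05 and 0.000199). The difference was 1.99 ± 0.27 (SE, adjusted p = 0.000381, limma fits), from 1.81 to 2.29 over 18 alternative settings and called in each. Of all genes tested in both models the difference was called for 27%, with the log2 fold change higher in adenine for 5.25% and higher in UUO for 21.7% (10.7% and 8.03% after median-of-ratios scaling).

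Il18, the gene of the ligand that Il18bp binds, rose in both models. Its log2 fold change was 1.36 ± 0.33 for adenine and 1.97 ± 0.23 for UUO (SE, limma, adjusted p = 0.0110 and 0.000319). FPKM of Il18bp per FPKM of Il18 was 0.924, 1.96 and 0.779 in control rats and 9.11, 7.38 and 5.22 in adenine rats, a 6.29-fold rise of the geometric mean with no overlap (exact permutation p = 0.1, the smallest possible). The ratio in sham rats was 1.63, 1.05 and 1.21 and in UUO rats 1.87, 1.62 and 0.754, 1.03-fold and overlapping (exact permutation p = 1).

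**Figure D2:**
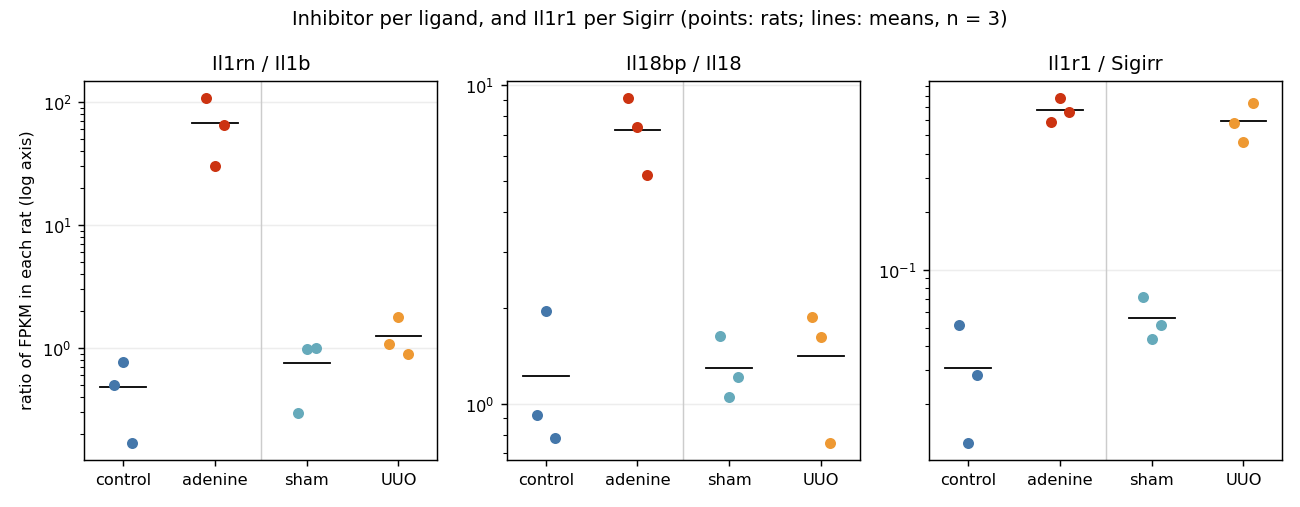
Ratios of FPKM within each rat (log axis) for Il1rn per Il1b, Il18bp per Il18 and Il1r1 per Sigirr, with 1 point per rat and a line at the mean of 3 rats. Il1rn per Il1b lies between 30.0 and 107.5 in adenine rats and between 0.891 and 1.81 in UUO rats, and Il18bp per Il18 separates from its undiseased group in the adenine model alone, whereas Il1r1 per Sigirr does so in both models.

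Counted together and leaving Il1rn out, 8 of the other 9 members were tested in each model, 7 were called higher, 0 lower, and Il33 was not called (limma, adjusted p under 0.05). Of all tested genes, 39.6% were called higher and 19.9% lower with adenine, and 56.1% higher and 14.4% lower with UUO, so a rise alone is common in these tables. After median-of-ratios scaling the shares were 29.1% higher and 28.4% lower with adenine and 28% each with UUO. Of the members, 6 were then called higher with adenine and 7 with UUO, and Il33 was called lower with UUO. At the study's further threshold, a log2 fold change of 2 or more in size, 6 members passed in each model, against 10.7% and 13.2% of all tested genes in that direction. These counts fell to 5 and 4 after median-of-ratios scaling, and to 1 and 2 with a pseudocount of 1. Those that did not pass besides Il33 were Il1b in the adenine model and Il1rap in the UUO model. The study itself tested with DESeq2 in place of limma, and it names Il1b among its differentially expressed genes of the adenine model. In the adenine model 2 members (Il1r2 and Il1rl1), and in the UUO model 3 (with Il18r1 added), had reached the minimum through the diseased rats alone and could only differ upwards, so these counts are a description. The median log2 fold change of the 8 tested members was 2.47 and 2.59, against 0.30 and 0.62 over all tested genes. Diseased rats were above undiseased rats without overlap for 7 of the 8 in each model, as for 45% and 60% of all tested genes.

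**Figure D3:**
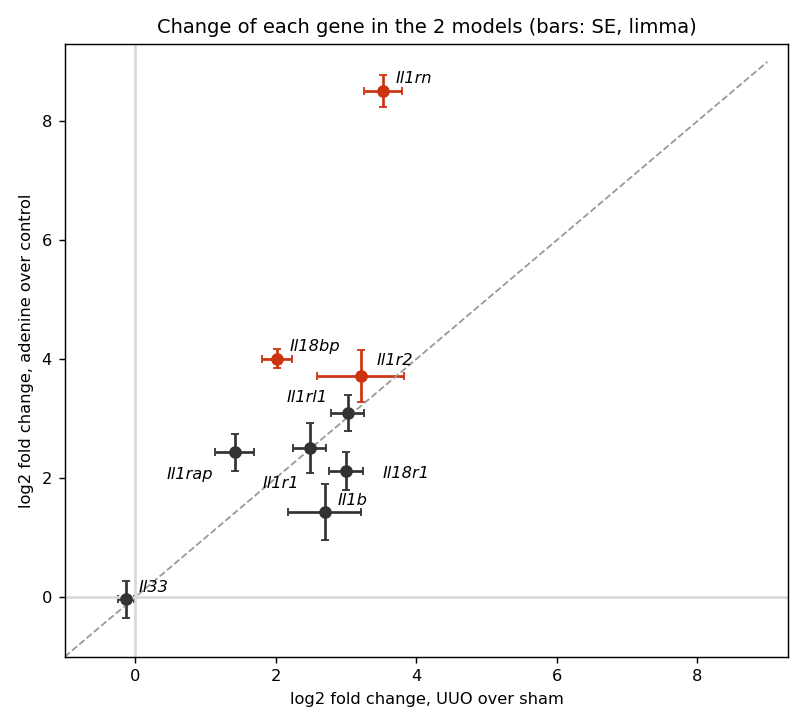
Log2 fold change of each tested member in UUO over sham (horizontal axis) and adenine over control (vertical axis), with bars for the SE from limma, a dashed diagonal of equal change and red points for the antagonists and the decoy receptor. Il1rn (8.51 with adenine, 3.53 with UUO) and Il18bp (4.01 and 2.02) lie above the diagonal, Il1r1 and Il1rl1 lie close to it, and Il33 lies near 0 on both axes.

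The order of levels changed between groups. In control rats Il33 was above Il18bp, which was above Il1b, and from Il1b downwards each gene overlapped its neighbour as far as Il1rl1, with Il1r2 and Il1a last. In adenine rats Il1rn was above all others, Il18bp and Il33 overlapped below it, and Il1r1, Il1b, Il1rap and Il1rl1 followed with each gene overlapping the next. In UUO rats Il33 kept the first place, and Il18bp, Il1rn, Il1b and Il1r1 followed with overlap between neighbours.

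Other genes followed the pattern of Il1rn closely. The log2(FPKM + 0.1) values, each less the mean of the 3 undiseased rats of its table, were correlated with those of Il1rn over 12 samples for 13485 genes, as a description that rests mainly on the differences between groups shared by all these genes. The highest Pearson r were those of Pld3 (0.996), a lysosomal phospholipase D family gene, Ptpre (0.994), a tyrosine phosphatase gene, and Lyz2 (0.994), the lysozyme gene of phagocytes. Hvcn1, a voltage-gated proton channel gene, and Slc7a11, which encodes the cystine-glutamate exchanger, had r of 0.994 each. Hvcn1 had log2 fold changes of 8.12 and 3.64 in the adenine and UUO models, the nearest in size to Il1rn. Among the members Il18bp came ninth of all genes (r = 0.993) and Il1rap at rank 481 (r = 0.940), whereas Il1b was at rank 5809 (r = 0.510).

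Most tested markers of immune cells and of fibroblasts also rose in both models. For macrophages, the summed FPKM of 6 markers (Cd68, Adgre1, Csf1r, Cd14, C1qa and Lyz2) was between 182 and 243 in control rats and 13343, 6764 and 10152 in adenine rats 1 to 3. It was between 208 and 330 in sham rats and 2423, 2380 and 1603 in UUO rats 1 to 3. Lyz2 made up most of each sum, and without it the sums were 32.3 to 37.2 in control rats and 1015, 799.9 and 1106 in adenine rats, and 37.4 to 48.0 in sham rats and 555, 608 and 387 in UUO rats. The order of Il1rn in adenine rats was that of the full sum and not of the sum without Lyz2, and in UUO rats that of the sum without Lyz2 and not of the full sum. All 6 markers were called higher in both models (limma), beside 39.6% (adenine) and 56.1% (UUO) of all tested genes. The log2 fold changes of the markers were 2.37 to 6.20 for adenine and 2.76 to 3.87 for UUO. By the test of the difference the change was larger with adenine for 4 of them (Cd68, Csf1r, Cd14 and Lyz2), beside 5.25% of all genes tested in both models. Il1rn lay above this range in the adenine model and within it in the UUO model, and Il18bp within it and below it, respectively. In bulk tissue fewer cells of a type and less RNA per cell cannot be told apart, and likewise for more, and the part of macrophages in these values was not tested.

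Of 6 T and NK cell markers, 5 were called higher with adenine and 6 with UUO (limma), with Nkg7 not called with adenine. For these and the lists below, the shares called higher among all tested genes were 39.6% with adenine and 56.1% with UUO. Most of the summed FPKM of the T and NK cell markers in adenine rats was Cd4, which rose to 104, 79.7 and 98.1 FPKM. Without Cd4, the sums were 4.42 to 6.63 in control, 11.95 to 24.9 in adenine, 3.94 to 7.19 in sham and 38.5 to 118 in UUO rats. UUO rat 3 had the highest of these sums and also the most Il18r1. Of 6 mast cell markers only Kit could be tested, and it was called higher in both models (log2 fold change 1.12 ± 0.28 and 1.12 ± 0.11, SE, limma, adjusted p = 0.0136 and 0.000159). FPKM of Cpa3, Tpsab1, Tpsb2, Cma1 and Ms4a2 together was 0.0640 to 0.202 in control, 0.217 to 1.04 in adenine, 0.0005 to 0.176 in sham and 0.572 to 5.24 in UUO rats, and Tpsab1 was at the lowest value in all rats but adenine rat 1 and UUO rat 1. All 6 fibroblast markers were called higher in both models (limma), with a median log2 fold change of 3.13 and 4.62. Among them Lum passed the minimum in the UUO model through the UUO rats alone. The summed FPKM of endothelial markers was lower with adenine (37.7 to 50.9, against 85.8 to 102 in control rats) and higher with UUO (146 to 178, against 81.5 to 106 in sham rats). Of 5 tested, 3 were called lower and 1 higher with adenine, and 0 lower and 3 higher with UUO (limma). With adenine Emcn fell from a mean FPKM of 51.0 to 14.8, whereas Cdh5 rose from 4.90 to 8.98 (limma, adjusted p = 0.000284 and 0.0206). Emcn and Kdr were not called with UUO, nor was Kdr with adenine. By the test of the difference, the log2 fold change was higher in adenine for Cd4. It was higher in UUO for Cd8a and Nkg7, for the fibroblast markers Pdgfra, Pdgfrb and Dcn, and for the endothelial markers Cdh5, Tek, Emcn and Egfl7. Of all genes tested in both models, 5.25% were called higher in adenine and 21.7% higher in UUO. The part of these cells in the levels of the family's genes was not tested.

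Of 11 further genes of the family, 6 were in the control and adenine table and 11 in the sham and UUO table, and 4 and 3, respectively, reached the minimum for testing. Sigirr, a receptor gene that restrains interleukin 1 signalling, fell in both, from a mean FPKM of 38.3 ± 3.61 to 9.43 ± 1.28 under adenine and from 31.1 ± 0.931 to 17.2 ± 1.82 under UUO (SD, n = 3 each). Its log2 fold changes were -2.02 ± 0.14 and -0.85 ± 0.10 (SE, limma, adjusted p = 7.32e-05 and 0.000349), and the difference of -1.17 ± 0.17 passed the test (adjusted p = 0.000674, limma fits). Against this, FPKM of Il1r1 per FPKM of Sigirr rose 25.4-fold with adenine and 10.6-fold with UUO (exact permutation p = 0.1 each, the smallest possible).

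Il36b, an agonist gene of another branch of the family, was at 0.0770, 0.208 and 0 FPKM in control rats and at 5.74, 2.65 and 4.38 in adenine rats (log2 fold change 4.56 ± 0.49, SE, limma, adjusted p = 0.000360). It passed the minimum through the adenine rats alone, as Il18rap did through the diseased rats in both models. It missed the minimum in the UUO table, where UUO rats were at 0.912, 0.0001 and 0.364. Il18rap, the partner chain of Il18r1, rose in both models with log2 fold changes of 1.53 ± 0.32 and 2.72 ± 0.39 (SE, limma, adjusted p = 0.00578 and 0.000880). Il18r1 per Il18rap was 2.13 and 2.73 on average in control and adenine rats and 2.45 and 2.42 in sham and UUO rats, with overlap (exact permutation p = 0.4 and 1).

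Of the genes that process and release interleukin 1, 9 of 11 tested were called higher with adenine and 11 of 11 with UUO, and 0 lower, beside 39.6% and 56.1% higher among all tested genes. Mefv and Capn1 were not called with adenine. After median-of-ratios scaling 9 of 11 were called higher in each model, beside 29.1% and 28% of all genes. P2rx7, the ATP-gated channel that triggers release, had the largest log2 fold change in the adenine model (4.28 ± 0.54) and 2.02 ± 0.37 with UUO (SE, limma). Aim2, a sensor of cytosolic DNA, had the smallest among those called in the adenine model (1.37 ± 0.31) and the largest in the UUO model (3.22 ± 0.42), where it passed the minimum through the UUO rats alone. Casp1, whose protease cleaves the precursors of interleukin 1 beta and IL-18, had 1.97 ± 0.18 and 2.67 ± 0.14. The difference between the models was called towards adenine for P2rx7 and towards UUO for Casp1, Casp4, Casp8 and Aim2 (adjusted p between 0.00231 and 0.0361, limma fits). After median-of-ratios scaling it was called for P2rx7, Casp8 and Aim2. Of all genes tested in both, 5.25% were called towards adenine and 21.7% towards UUO (10.7% and 8.03% after that scaling). Mean FPKM of Aim2 was 1.02 in control and 0.210 in sham rats, and 2.87 in adenine and 2.80 in UUO rats. Given its route past the UUO minimum, the difference for Aim2 is a description. Capn1, the smallest called in the UUO model (0.43 ± 0.085), lay 0.18 below the median of all genes there.

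The signal transduction genes had a median log2 fold change of 0.93 with adenine and 0.98 with UUO. Of 17 tested in each model, 11 were called higher and 1 lower for adenine, and 10 and 1 for UUO, the latter share being near the 56.1% called higher among all tested genes (39.6% for adenine). After median-of-ratios scaling these were 9 and 3 for adenine and 7 and 3 for UUO, beside 29.1% and 28% higher among all genes, with Irak1 and Tollip added to those called lower. Irak3, a kinase family gene that inhibits the pathway, rose most in both (log2 fold changes 2.40 ± 0.14 and 2.75 ± 0.25, SE, limma), and the gene called lower was Chuk, an I-kappa-B kinase gene (-1.16 ± 0.19 and -0.93 ± 0.11). Myd88, the adaptor gene, had 1.23 ± 0.13 and 1.10 ± 0.13. The NF-kB subunit gene Rela was the 1 gene of the list whose change differed between the models, being larger in UUO by 0.62 ± 0.13 (SE, adjusted p = 0.00464, limma fits), a call that was lost after median-of-ratios scaling. That scaling gave 3 other calls, of Irak1, Tab2 and Traf6, all with the log2 fold change higher in adenine.

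Among genes that interleukin 1 is known to induce, 11 of 13 tested were called higher and 1 lower with adenine, and 11 and 1 of 12 with UUO, also after median-of-ratios scaling. Among all tested genes, 39.6% and 56.1% were called higher (29.1% and 28% after that scaling). In each model 2 genes of the list, Cxcl2 with Il6 for adenine and Cxcl2 with Mmp3 for UUO, passed the minimum through the diseased rats alone. Lcn2, encoding an iron-carrier binding protein of injured tubules, rose most, from 3.82 ± 2.13 to 489 ± 78.1 FPKM under adenine and from 6.12 ± 2.10 to 383 ± 57.8 under UUO (SD, n = 3 each). Ptgs2, the inducible prostaglandin synthase gene, was the gene called lower, with log2 fold changes of -2.44 ± 0.39 and -2.05 ± 0.61 (SE, limma, adjusted p = 0.00191 and 0.0199). Cxcl1, a chemokine gene, had 3.28 ± 0.26 and 4.24 ± 0.68. Il6 had 2.63 ± 0.39 in the adenine model and missed the minimum in the UUO table, where it was listed at 0.0001 in all sham rats and at 1.12, 0.752 and 0.50 FPKM in UUO rats.

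Of 12 genes of this list tested in both models, 3 were called as differing between them. That share is near the 27% called among all genes tested in both (5.25% higher in adenine and 21.7% higher in UUO). Cxcl2, a neutrophil-attracting chemokine gene, and Tnfaip3, an inhibitor of NF-kB signalling, changed more in adenine (by 2.86 ± 0.50 and 1.07 ± 0.33, SE, adjusted p = 0.00177 and 0.0304, limma fits). Mmp3, a matrix protease gene, changed by 0.52 ± 0.76 (log2, limma, adjusted p = 0.578) under adenine and by 4.93 ± 0.36 under UUO, a difference of -4.40 ± 0.85 (adjusted p = 0.00281, limma fits). Its mean FPKM also differed between the undiseased groups (0.450 in control and 0.0627 in sham rats). Cxcl2 in both models and Mmp3 in the UUO model had passed the minimum through the diseased rats alone, so their differences are a description. All 3 calls stood after median-of-ratios scaling, which added Lcn2. Over the 4 lists, 37 genes were called in each model, 34 of them higher. Such calls are common, as 39.6% of all tested genes were called higher and 19.9% lower with adenine. With UUO these shares were 56.1% and 14.4%.

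**Figure D4:**
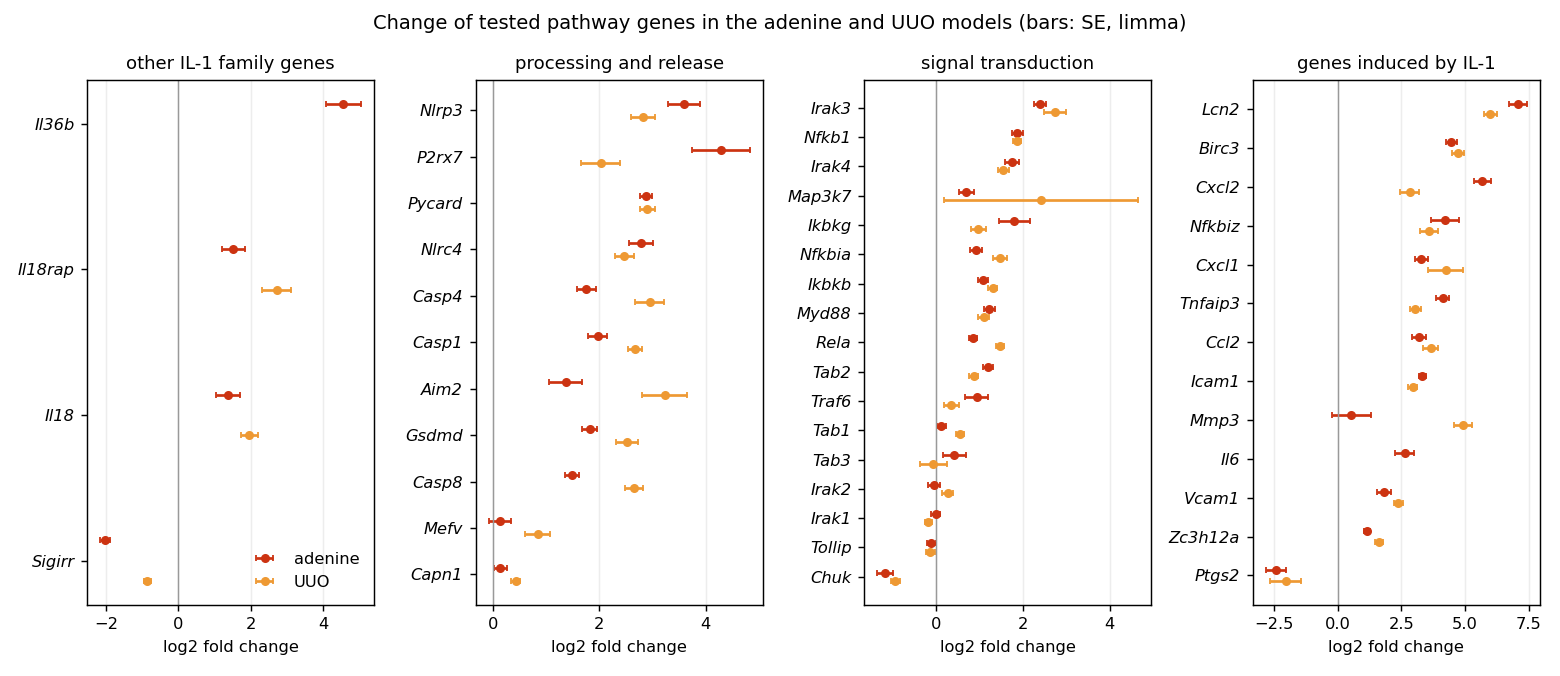
Log2 fold change of the tested genes of 4 lists (other family genes, processing and release, signal transduction, genes induced by interleukin 1) in the adenine and UUO models, with bars for the SE from limma. Most points lie right of 0, Sigirr, Chuk and Ptgs2 lie left of 0 in both models, and the wide bar of Map3k7 in the UUO model goes with its listing at the lowest value in 3 rats.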

How the data were processed

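Kidney RNA of 12 rats (3 per group) was sequenced as stranded, paired-end poly(A) libraries. The authors deposited FPKM per gene in 2 separately normalized tables, 1 per model, and the submitters' processing notes name cutadapt 1.9, HISAT2 2.0.4 and StringTie 1.3.4d. The genome build and annotation are not given in the sources used here, so genes are identified by symbol. Depth is unknown: a common step of low values was shared by 1.05% to 1.73% of low genes in the control and adenine table and 3.55% to 6.85% in the other, too few to recover reads. No per-sample column was left out.

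Each table was fitted alone with limma 3.58.1 (lmFit, eBayes with a trend) in R 4.3.3 on log2(FPKM + 0.1), for entries reaching 0.5 FPKM in 3 or more of the 6 samples, with Benjamini-Hochberg adjustment over all tested entries. Fold changes on this scale understate those of low genes. A gene was called at adjusted p under 0.05. The difference between models was the difference of log2 fold changes over the root of the summed squared SEs, compared with a t distribution whose degrees of freedom were the sum of both fits, and adjusted over 13486 genes. It takes the tables' errors as independent. Ratios were compared by two-sided exact permutation tests over 3 against 3 rats. Python 3.11.15 served for other steps.

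The members and gene lists were chosen with earlier results of these data known. Named from the lists are the called genes with the highest and lowest log2 fold change, partners of the members, genes whose change differed between the models, and for Il1rn the 5 genes with the highest correlation. Settings varied were the pseudocount (1 or 0.01), the filter (none, or 1 FPKM), the scaling (median of ratios, with Irak1, Tollip, Tab2 and Traf6 named from it), a replicate block and each rat left out in turn. Promoters of 9 members were matched in RefSeq.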

Additional observations from a re-analysis of the deposited data

Results flagged for a closer look

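Il18bp differed between the models by the test of the difference itself, with a log2 fold change larger in the adenine model by 1.99 ± 0.27 (SE, adjusted p = 0.000381, limma fits). All 3 adenine rats were above all control rats and all 3 UUO rats above all sham rats. No test for outlying samples was run on these groups of 3 rats, but each rat was left out in turn.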

How the results depend on the processing

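The number of members called stayed between 6 and 7 for adenine and 6 and 8 for UUO over all alternatives, and the number of genes called over the 4 lists between 34 and 38 in each. With a pseudocount of 1, which shrinks the changes of low genes, the log2 threshold of 2 was passed by 1 member under adenine and by 2 under UUO, in place of 6 each. The members that differed between the models numbered 1 (Il18bp), 2 with a pseudocount of 1 and 2 after median-of-ratios scaling, and from 1 to 3 when each rat was left out. The difference for Il1r1 turned to -0.20 with a pseudocount of 1. Leaving out each rat, small values crossed 0: the adenine change of Il33 ranged from -0.31 to 0.33, and the differences between models from -0.40 to 0.39 for Il1r1, from -0.080 to 0.35 for Il1rl1 and from -0.18 to 0.46 for Il33. None of these was called. Rats with the same replicate number did not deviate together in the adenine model (correlations from -0.12 to -0.049). In the UUO model their correlations were small, from 0.050 to 0.11, but above those of the other pairs (-0.078 to 0.016). With the number as a replicate block, 6 members were called with adenine (Il1b lost, adjusted p = 0.0571 in limma) and 7 with UUO, 36 and 37 genes over the lists, and 1 member differed. With a minimum FPKM of 1, Il1r2 was not tested. The lowest levels, those of Il1a and undiseased Il1r2, are the least certain, as depth is unknown.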
